A study of Saccharomyces cerevisiae with 32 samples.

Results

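The genes described here encode enzymes that make amino acids other than those of the branched-chain pathway in budding yeast (Saccharomyces cerevisiae). They were picked by reading frame name from a list of 34. Of these, 33 are among the 5446 reading frames of the deposited tables, and 32 were in all 6 tables. LYS2 was in neither table of the 15 °C experiment, and SER1 was not analysed here. By pathway, 7 genes act in arginine synthesis, 4 in histidine, 7 in lysine, 8 in tryptophan and the common aromatic pathway, 6 in the aspartate family (homoserine, threonine and the entry to isoleucine) and 2 in asparagine and serine synthesis.

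Ribosome footprints and mRNA were sequenced from strains altered in DED1 or DBP1, which encode related DEAD-box RNA helicases. Footprints report how many ribosomes sit on all copies of a gene's mRNA together. The 32 libraries came from 8 strains in 3 experiments, with 2 libraries per strain and assay. At 15 °C the strains were DED1-CS WT (NSY52), the cold-sensitive mutant ded1-cs (NSY54) and ded1-cs_hcDBP1 (NSY56), the same mutant with high-copy DBP1. At 37 °C they were DED1-TS WT (NSY67), the heat-sensitive mutant ded1-ts (NSY71) and ded1-ts_hcDBP1 (NSY73). Another experiment at 37 °C held dbp1delta (NSY14), which lacks DBP1, and ded1-ts dbp1delta (NSY15), which carries both changes, and the tables set both against a WT whose own level columns match no sample and were not used. Per the labels, the cells grew in SC medium with selection for plasmids where needed, were shifted in temperature and stood for 2 min in cycloheximide, at 100 µg/ml, ahead of harvest. The labels do not say which nutrients were left out for which strain.

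Yeast coordinates its amino acid enzymes through general amino acid control, in which the transcription activator Gcn4 binds their promoters. The GCN4 mRNA is itself controlled in translation, by short upstream reading frames. Single pathways have their own layer: the ArgR/Mcm1 complex represses arginine genes when arginine is plentiful, Lys14 activates lysine genes when a lysine intermediate builds up, and a short leader peptide in the CPA1 mRNA stalls ribosomes when arginine is high. The first enzyme of a pathway is often inhibited by its end product.

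The authors deposited, for each gene, log2 levels of footprints and mRNA and a log2 change of each against the control strain. Translational efficiency is the footprint change minus the mRNA change, so an error in mRNA enters it with the opposite sign. Both libraries of a strain are pooled in 1 value, so no spread between replicates can be given and no difference below was tested against one. Genes at a log2 change of 1 or more in either direction (2-fold) are called higher or lower, provided that footprints and mRNA each reached a mean level of 50. All members present in a table passed that minimum. The share of all genes counted the same way is given as background. Sequencing depth is unknown, and column sums of the deposited levels ranged from 5651054 to 48359134. In the authors' deposited tables DED1 mRNA stood at 1.37 in ded1-cs, -1.17 in ded1-ts and -2.63 in dbp1delta, and DBP1 mRNA at 5.85 and 6.89 in the hcDBP1 strains at 15 and 37 °C.

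**Figure D1:**
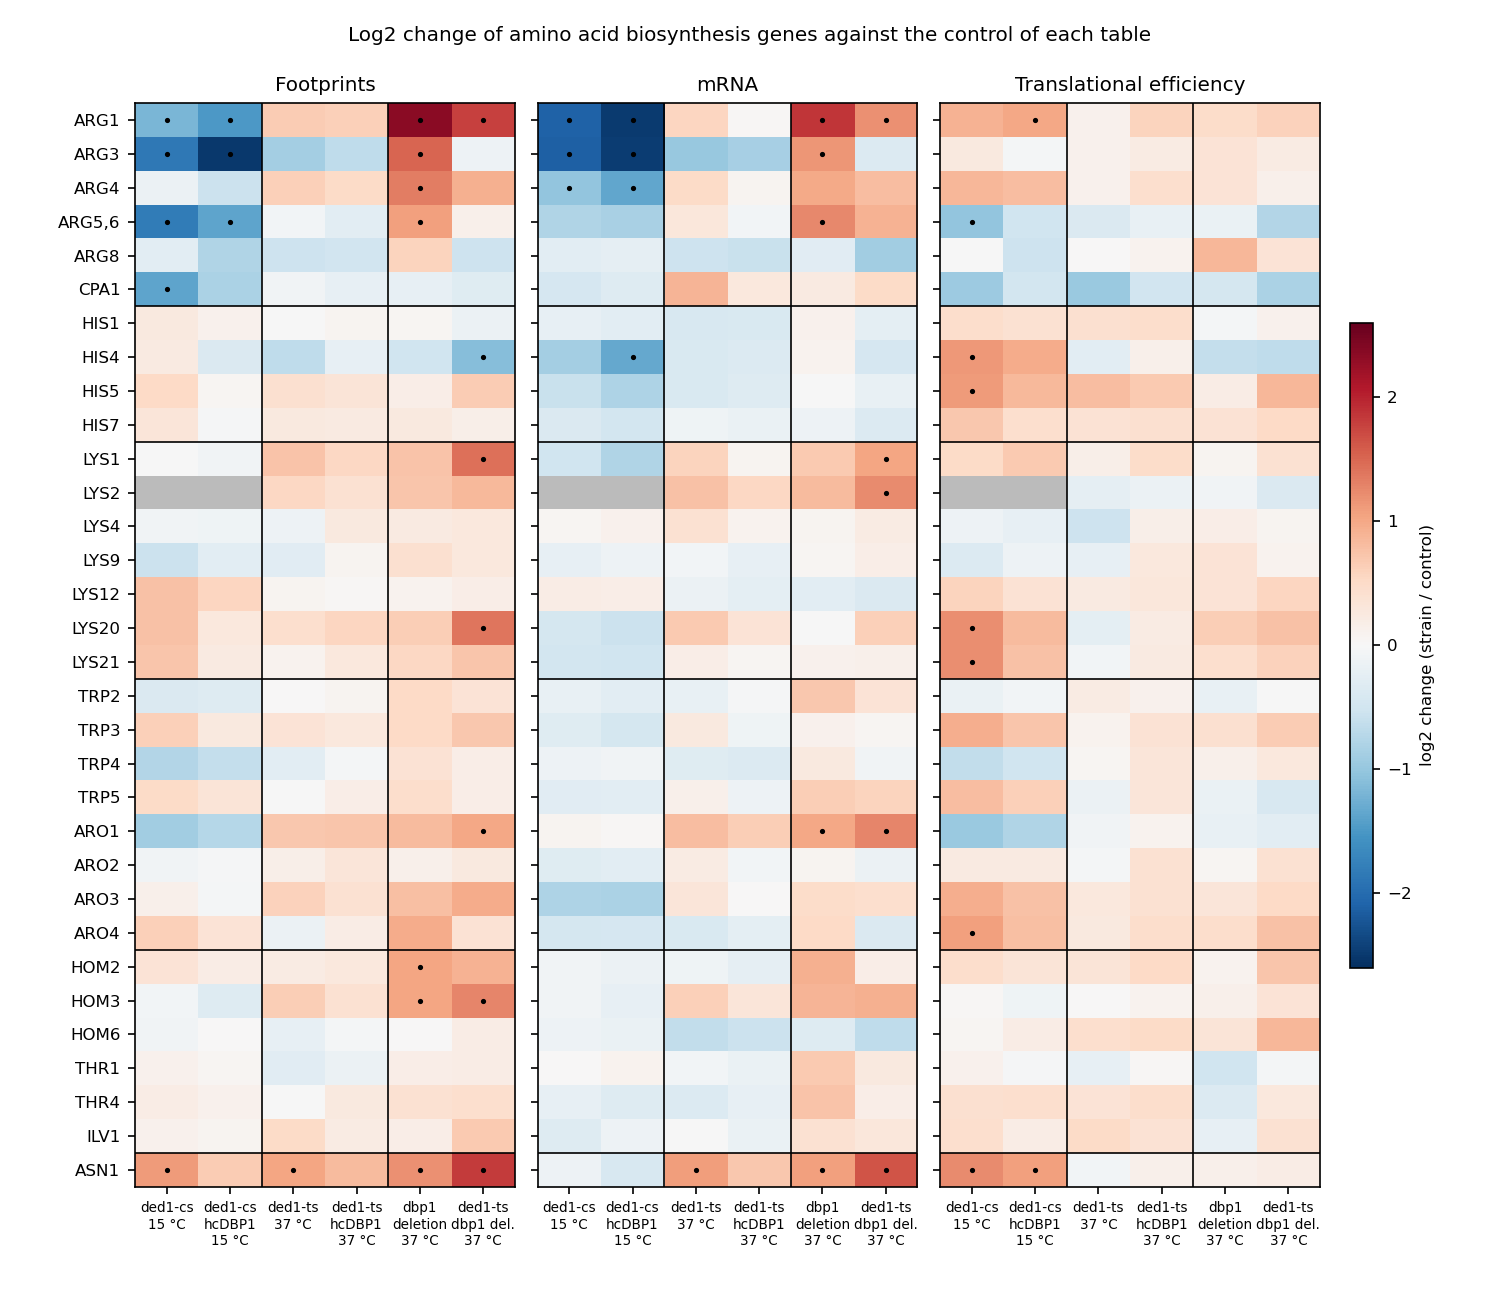
Log2 changes of footprints, mRNA and translational efficiency (columns, 6 strains against their controls) for 32 of the genes (rows, by pathway); red is higher, blue lower, dots mark changes of 2-fold or more and grey marks LYS2 where it was not in the table. In the 15 °C strains the arginine rows are blue in mRNA, and in dbp1delta most of them are red in both footprints and mRNA.

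Setting ded1-cs beside DED1-CS asks how impaired Ded1 function in the cold alters mRNA and its translation. In ded1-cs the mRNAs of amino acid enzymes lay mostly below the control, while their translational efficiency, on the authors' scale, lay mostly above it, so that footprints changed little for most pathways. The arginine genes were the exception, with lower footprints for 4 of 7. Of the 32 genes, 0 had higher and 3 lower mRNA (background 1.22% and 0.887%), and 28 lay below 0, with a median log2 change of -0.32 against -0.01 for all genes. Translational efficiency was higher for 6 and lower for 1 (background 16.4% and 21.9%), with a median of 0.46 against 0.10. Footprints were higher for 1 and lower for 4 (background 14.0% and 20.2%), with a median of 0.11 against 0.10.

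ARG1, the argininosuccinate synthase (YOL058W), had deposited log2 mRNA levels of 13.4 in DED1-CS and 11.3 in ded1-cs, and footprint levels of 14.49 and 13.3. The authors' deposited table gives its changes as -2.10 in mRNA, -1.19 in footprints and 0.91 in translational efficiency. Its footprints lay less far below the control than its mRNA did. ARG3 (YJL088W), the ornithine carbamoyltransferase that precedes it in the pathway, had mRNA levels of 9.6 and 7.5 and footprint levels of 9.94 and 8.1. Its changes in the authors' deposited table were -2.12 in mRNA, -1.87 in footprints and 0.25 in translational efficiency, so its footprints followed its mRNA. ARG4 (YHR018C), the argininosuccinate lyase of the last step, stood at -1.02 in mRNA but at only -0.16 in footprints in the authors' deposited table.

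For 2 other arginine genes the larger share of the footprint difference lay in translational efficiency. ARG5,6 (YER069W), which encodes a precursor cleaved into the acetylglutamate kinase and the following reductase, stood at -1.82 in footprints, -0.78 in mRNA and -1.03 in translational efficiency in the authors' deposited table. CPA1 (YOR303W), the small subunit of the arginine-specific carbamoyl phosphate synthetase and the carrier of the leader peptide, stood there at -1.37, -0.43 and -0.94. ARG8 (YOL140W), the acetylornithine aminotransferase, was between -0.28 and -0.01 in all 3 measures.

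All 4 histidine genes had mRNA values below 0 and translational efficiency values above 0. HIS4 (YCL030C), a multifunctional enzyme and a standard Gcn4 target, stood at -0.89 in mRNA, 1.13 in translational efficiency and 0.24 in footprints in the authors' deposited table. HIS5 (YIL116W), the histidinol-phosphate aminotransferase, was at -0.57, 1.10 and 0.53 in the same measures. HIS1 (YER055C) and HIS7 (YBR248C), of the first step and the ring-forming step, had translational efficiencies of 0.47 and 0.69 in the authors' deposited table. Median footprints of the 4 genes were at 0.28.

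Among 6 lysine genes, LYS20 (YDL182W) and LYS21 (YDL131W), the homocitrate synthases of the first step, each stood at 1.20 in translational efficiency, with mRNA at -0.45 and -0.49 in the authors' deposited table. The pair are close copies of each other, so reads may be split between them. LYS9, the saccharopine reductase, was lowest in footprints at -0.55 and LYS12, the homoisocitrate dehydrogenase, highest at 0.77. Aromatic footprints ran from -0.90 for ARO1 to 0.62 for TRP3 in the authors' deposited table. ARO4 (YBR249C), a DAHP synthase of the first aromatic step, stood at 1.06 in translational efficiency, and its counterpart ARO3 at 0.94 with mRNA at -0.81. ARO1 (YDR127W), the pentafunctional enzyme of the middle steps, stood at -0.97 with mRNA at 0.07 in the authors' deposited table. The aspartate family lay close to the control, with footprints from -0.09 for HOM6, homoserine dehydrogenase, to 0.37 for HOM2, aspartate semialdehyde dehydrogenase.

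ASN1 (YPR145W), an asparagine synthetase, was the member with the highest footprint change. Its log2 footprint levels were 14.75 in DED1-CS and 15.9 in ded1-cs, and its mRNA levels 14.1 and 14. The authors' deposited table gives 1.10 in footprints, -0.12 in mRNA and 1.23 in translational efficiency. ASN2, a close copy of ASN1, stood at 0.52 in footprints and 0.56 in translational efficiency in the authors' deposited table.

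**Figure D2:**
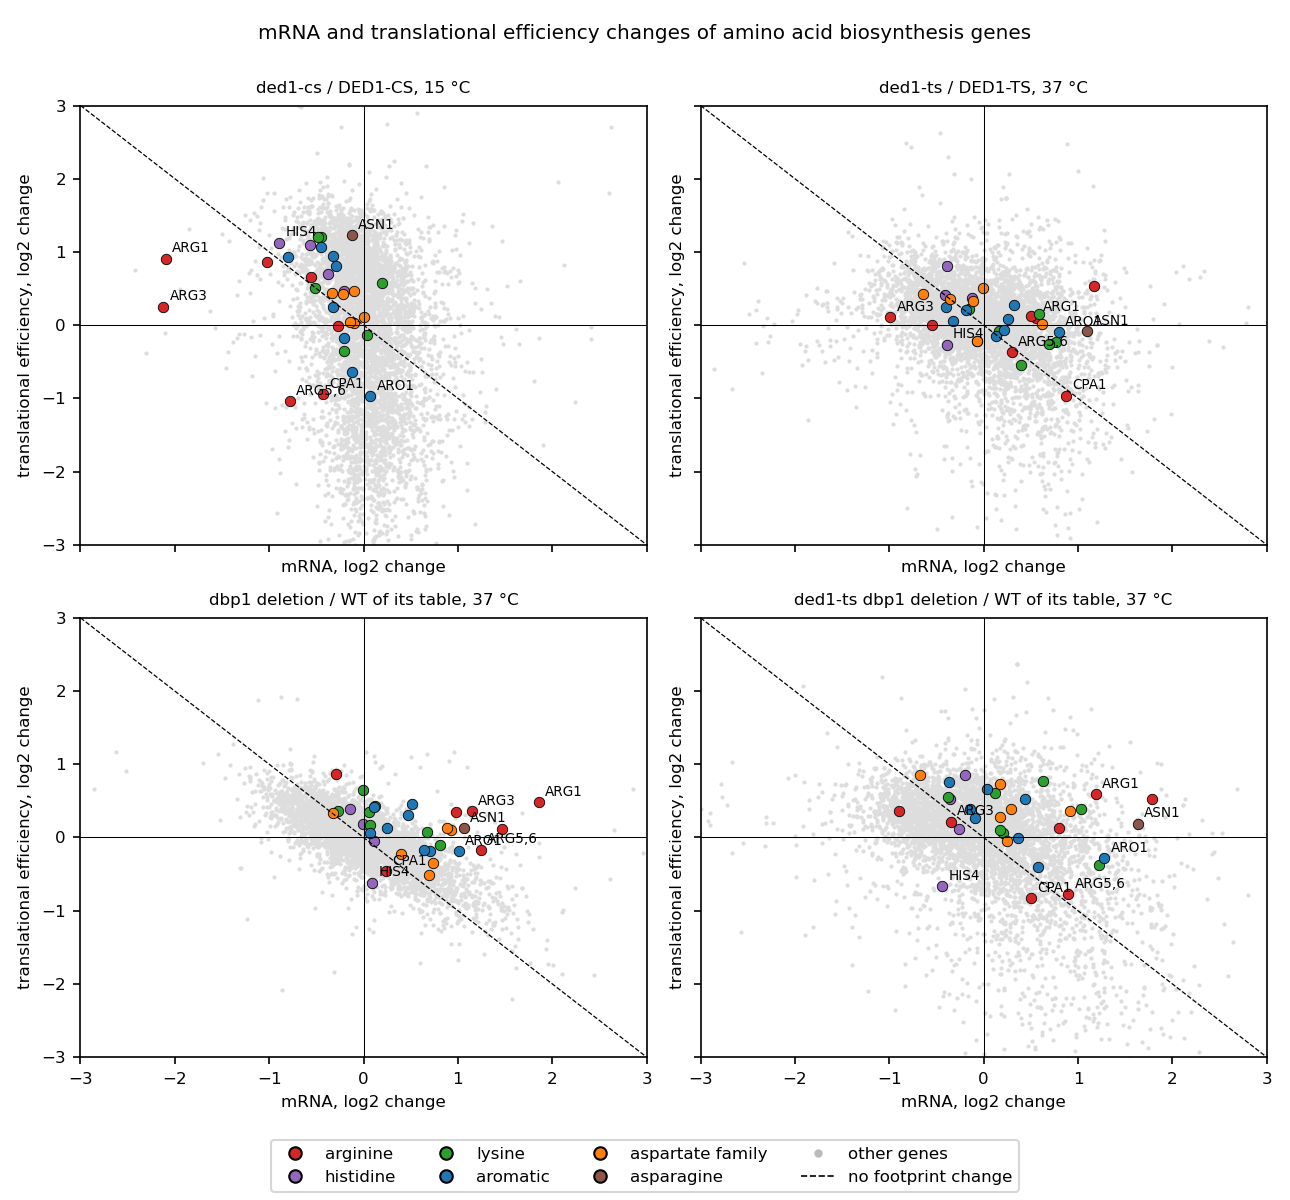
Each point is a gene, with its log2 mRNA change on the x axis and its log2 change in translational efficiency on the y axis, for 4 strains against their controls; coloured points are the members by pathway, grey points other genes within the axes, and on the dashed line footprints do not change. In ded1-cs 22 of 32 members fall in the upper left, and in dbp1delta 16 of 33 fall in the upper right.

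Lower mRNA with higher translational efficiency was seen for 22 of the 32 genes (68.8%), against 32.6% of all genes in ded1-cs. Part of such an opposition is built into the measure, since mRNA is subtracted. The scale of translational efficiency at 15 °C also rests on the authors' scaling. When each strain's levels were scaled to equal totals, all genes moved by -0.53 in footprints and by -0.59 in translational efficiency. Then 0 members were higher and 4 lower in translational efficiency, against 91 and 1789 of all genes, and 0 were higher and 7 lower in footprints, against 157 and 1663 of all genes. Members' median translational efficiency on that scale was -0.13 against -0.50 for all genes. A constant shift moves both medians alike and leaves their difference as it was.

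High-copy DBP1 asks whether extra Dbp1 offsets the ded1-cs defect. Set directly against ded1-cs, by difference of the deposited changes, 0 of 32 members were 2-fold higher or lower in any measure. The background was 3.01% higher and 0.886% lower in footprints, 0.0591% and 0.295% in mRNA and 2.13% and 0.236% in translational efficiency, so few genes of any kind were counted. Member footprints ran from -0.65 for ARG3 to 0.55 for CPA1 in that difference, and translational efficiency from -0.53 for ARG8 to 0.51 for ARG5,6. The member medians of that difference were -0.18 in footprints, -0.06 in mRNA and -0.13 in translational efficiency, with all genes at 0.06, 0.01 and 0.05.

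Against DED1-CS, the ded1-cs_hcDBP1 strain had 0 members higher and 5 lower in mRNA (background 0.572% and 0.868%), 4 of them arginine genes. In the authors' deposited table ARG1 was at -2.49, ARG3 at -2.47, ARG4 at -1.36 and HIS4 at -1.33. ARG3 footprints stood at -2.52, ARG1 footprints at -1.49 and ARG5,6 footprints at -1.37, which made 0 members higher and 3 lower in footprints (background 5.8% and 11.0%). Translational efficiency was higher for 2 members, ASN1 at 1.07 and ARG1 at 1.01 in the authors' deposited table, and lower for 0 (background 9.21% and 13.1%). CPA1 stood at -0.82 in footprints and -0.48 in translational efficiency in the authors' deposited table, where ded1-cs had -1.37 and -0.94. LYS20 and HIS5 stood at 0.82 and 0.85 in translational efficiency. Both deposited comparisons at 15 °C use the same control libraries. With equal totals, ded1-cs_hcDBP1 had 7 members lower in footprints, against 56 higher and 1039 lower of all genes. Translational efficiency then had 0 members higher and 1 lower, against 86 and 1230 of all genes. Set against ded1-cs on that scale, all genes had 239 higher and 30 lower in footprints, and members 0 of either.

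**Figure D3:**
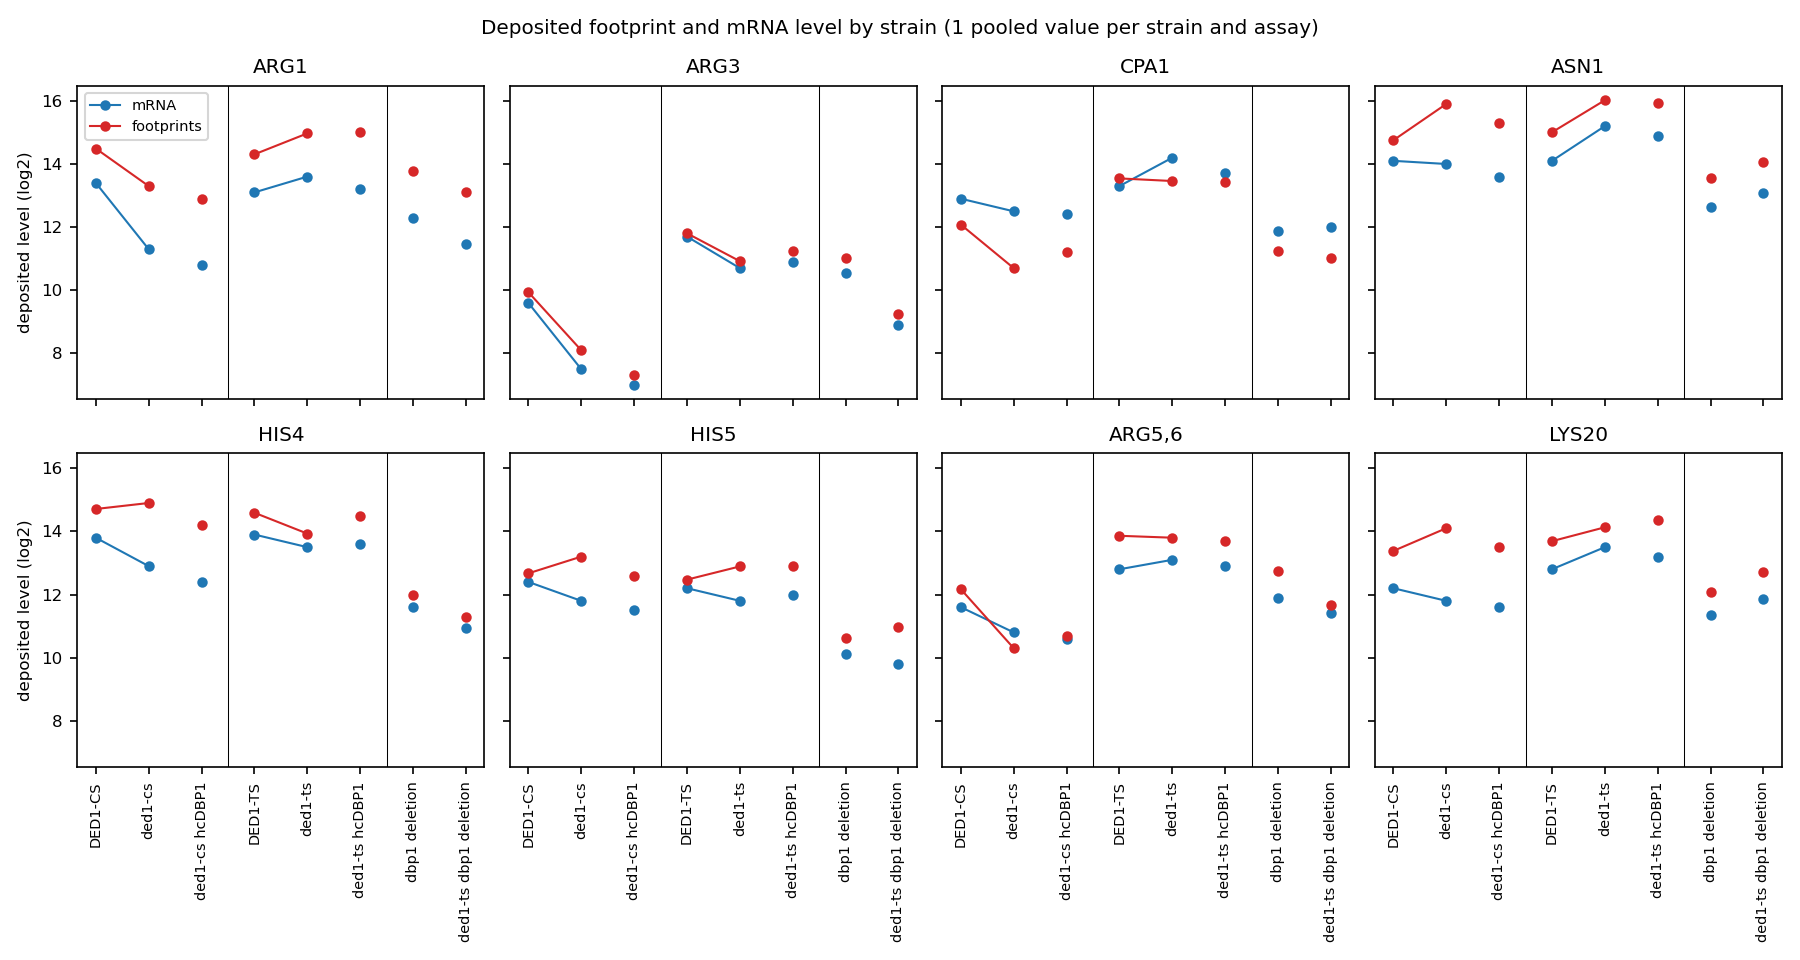
Deposited log2 levels of mRNA and footprints (y axes) for 8 members in the 8 strains (x axis), each point the pooled value of 2 libraries; lines join a mutant to the control of the same table, and points from different tables were scaled separately. ARG1 and ARG3 mRNA are lower in ded1-cs and ded1-cs_hcDBP1 than in DED1-CS, and ASN1 is higher in ded1-ts than in DED1-TS in both assays.

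At 37 °C, ded1-ts beside DED1-TS poses the same question under heat. Counts of members past 2-fold were near the shares of all genes. Of 33 members, 2 were higher and 0 lower in footprints (background 6.68% and 6.64%) and 2 higher and 0 lower in mRNA (background 4.14% and 3.2%). In translational efficiency 0 were higher or lower (background 2.85% and 6.38%). Medians were 0.09 in footprints, 0.13 in mRNA and 0.09 in translational efficiency, with all genes at 0.03, 0.00 and 0.08. With equal totals the all-gene counts in footprints became 472 higher and 278 lower, those in mRNA 400 and 96, and members had 2 and 3 higher and 0 lower.

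ASN1 had log2 mRNA levels of 14.1 in DED1-TS and 15.2 in ded1-ts, and footprint levels of 15.004 and 16.02. Its changes in the authors' deposited table were 1.10 in mRNA, 1.02 in footprints and -0.08 in translational efficiency. CPA1 had mRNA levels of 13.3 and 14.2 and footprint levels of 13.543 and 13.46. Its mRNA was thus above the control, at 0.88, while its footprints stood at -0.08 and its translational efficiency at -0.96 in the authors' deposited table.

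The other arginine genes did not move together. ARG1 and ARG4 stood at 0.56 and 0.51 in mRNA, and ARG3 at -0.99 and ARG8 at -0.55 in the authors' deposited table. ARG5,6 was at 0.30 in mRNA and -0.06 in footprints. The histidine genes were again below the control in mRNA, from -0.41 for HIS1 to -0.12 for HIS7, and HIS5 had the highest translational efficiency of all members at 0.81 in the authors' deposited table. HIS4 footprints were the lowest histidine value at -0.66. Lysine footprints ran from -0.29 for LYS9 to 0.74 for LYS1, the saccharopine dehydrogenase of the last step, and aromatic ones from -0.27 for TRP4, anthranilate phosphoribosyltransferase, to 0.71 for ARO1. In the aspartate family they ran from -0.29 for THR1, homoserine kinase, to 0.63 for HOM3, the aspartate kinase of the first step.

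With high-copy DBP1 at 37 °C, the difference from ded1-ts in translational efficiency lay above 0 for most members, on the authors' scale. Against ded1-ts, by difference of the deposited changes, 29 of 33 members lay above 0 in translational efficiency, with a median of 0.19 against 0.01 for all genes. The median was -0.15 in mRNA against -0.01, and 0.05 in footprints against 0.02. Both mRNA and translational efficiency were above 0 for 18.2% of members and 22.2% of all genes. Lower mRNA with higher translational efficiency was seen for 69.7% of members, against 29.4% of all genes. Part of that opposition is built into the measure, since mRNA is subtracted. None reached 2-fold: 0 members were higher or lower in footprints (background 2.32% and 0.575%), in mRNA (background 0.69% and 0.326%) or in translational efficiency (background 1.29% and 0.307%). With equal totals, members' median translational efficiency was 0.04 against -0.14 for all genes, whose split was 43 higher and 23 lower, and 85 higher and 94 lower in footprints. The count of members above 0 holds for the authors' scale only and is not given with equal totals.

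Against DED1-TS, that strain had 30 of 33 members above 0 in translational efficiency, with a median of 0.31 against 0.10 for all genes. It had 0 members past 2-fold (background 0.883% higher and 2.98% lower). Lower mRNA with higher translational efficiency was seen for 57.6% of members, against 44.9% of all genes. Both were above 0 for 33.3% of members, against 15.2% of all genes. In footprints 1 member was higher and 0 were lower (background 1.86% and 1.06%), while mRNA had 0 of either (background 1.69% and 0.595%). ASN1 stood at 0.82 in footprints and ARG3 at -0.66 in the authors' deposited table, the latter again the lowest member. CPA1 was at -0.49 in translational efficiency, against -0.96 in ded1-ts. Equal totals changed the all-gene counts to 187 higher and 22 lower in mRNA, 73 and 63 in footprints and 19 and 296 in translational efficiency. On that scale the members' median translational efficiency was 0.09 against -0.12 for all genes. The count of members above 0 is not given on that scale.

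**Figure D4:**
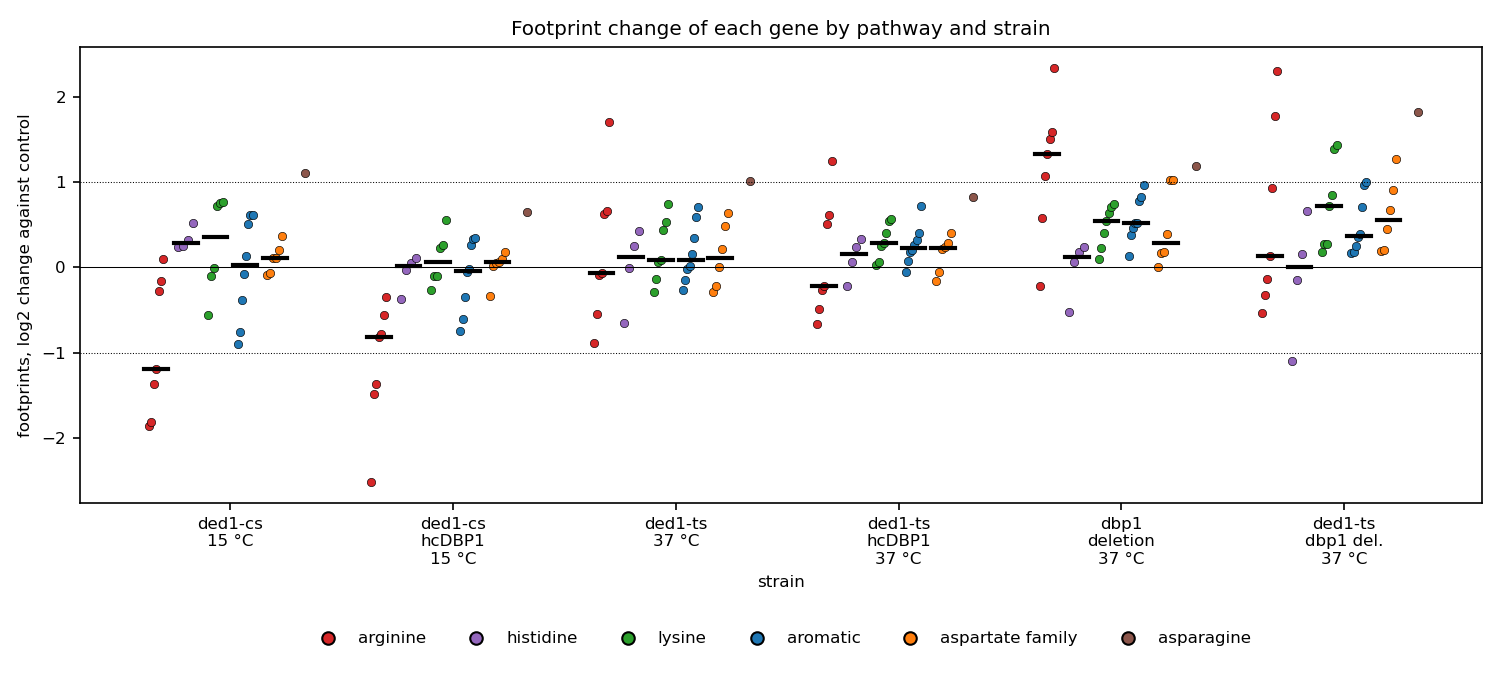
Log2 footprint changes (y axis) of the members of each pathway in each strain against its control; each point is a gene and bars are pathway medians. Arginine genes have a median of -1.19 in ded1-cs and of 1.33 in dbp1delta, while histidine medians lie between 0.01 and 0.28.

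In dbp1delta at 37 °C, mRNA and footprints of amino acid enzymes lay mostly above those of the WT of its table. Of 33 members, 8 were higher and 0 lower in footprints (background 1.31% and 0.624%), and 31 lay above 0. In mRNA 6 were higher and 0 lower (background 4.3% and 1.31%), and 27 lay above 0. Translational efficiency had 0 members past 2-fold (background 0.382% and 1.83%). Member medians were 0.52 in footprints, 0.48 in mRNA and 0.13 in translational efficiency, with all genes at -0.01, -0.01 and -0.02. Both mRNA and translational efficiency were above 0 for 16 members (48.5%), against 10.3% of all genes.

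Arginine genes led, with 5 of 7 higher in footprints (background 1.31%) and 4 in mRNA (background 4.3%). The authors' deposited table gives ARG1 at 2.34 in footprints and 1.86 in mRNA, ARG3 at 1.50 and 1.14, ARG4 at 1.33 and 0.98 and ARG5,6 at 1.08 and 1.24. CPA1 was not among the higher genes and stood at -0.22 in footprints, 0.24 in mRNA and -0.46 in translational efficiency in the authors' deposited table. ARG8 had footprints at 0.58 with mRNA at -0.29, and its translational efficiency of 0.87 was the highest of the members. ASN1 stood at 1.19 and 1.06, HOM2 at 1.03 and 0.93 and HOM3 at 1.02 and 0.89 in the authors' deposited table. ARO1 passed 2-fold in mRNA at 1.01, with footprints at 0.82.

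The histidine genes stayed apart, with footprints from -0.52 for HIS4 to 0.24 for HIS7 in the authors' deposited table. All 7 lysine genes and all 8 aromatic genes had footprints above 0. They ran from 0.09 for LYS12 to 0.74 for LYS1, and from 0.13 for ARO2, chorismate synthase, to 0.97 for ARO4. THR1 had mRNA at 0.69 and translational efficiency at -0.52, and THR4, threonine synthase, was at 0.74 and -0.35. ILV1, threonine deaminase, which opens the isoleucine pathway, was at 0.40 in mRNA and 0.18 in footprints.

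Other features moved with this strain. DED1 itself stood at -1.46 in footprints and -2.63 in mRNA in dbp1delta in the authors' deposited table. Of 9 branched-chain genes, 8 were higher in footprints (background 1.31%), with LEU1 at 4.31 and BAT1 at 2.75 in the authors' deposited table. HIS3, a histidine enzyme widely used as an auxotrophic marker, stood at -2.94 in footprints and -3.74 in mRNA in dbp1delta and at -2.86 and -3.92 in ded1-ts dbp1delta. LEU2 was not in the tables of this experiment. The part of DED1 and of marker differences between these strains and their WT in the values above was not tested.

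The double mutant asks what ded1-ts adds when DBP1 is missing. Against the WT of its table, 7 of 33 members were higher and 1 lower in footprints (background 9.03% and 8.95%). In mRNA 6 were higher and 0 lower (background 9.93% and 4.95%), and in translational efficiency 0 of either (background 2.6% and 10.3%). The members' medians were 0.39 in footprints, 0.20 in mRNA and 0.36 in translational efficiency, with all genes at 0.00, 0.00 and 0.11. In the authors' deposited table ASN1 stood at 1.82 in footprints and 1.63 in mRNA, and ARG1 at 1.78 and 1.19. LYS1 stood at 1.43 in footprints, LYS20 at 1.39, HOM3 at 1.28 and ARO1 at 1.00, and in mRNA ARO1 reached 1.28 and LYS1 1.04. LYS2, the aminoadipate reductase, passed 2-fold in mRNA at 1.22 with footprints at 0.85. HIS4 was the lower member, at -1.10 in footprints, -0.44 in mRNA and -0.66 in translational efficiency in the authors' deposited table.

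Set against dbp1delta by difference of the deposited changes, which assumes that both tables share their WT, 0 members were higher and 2 lower in footprints (background 6.78% and 8.55%). These were ARG3 at -1.64 and ARG8 at -1.11. ARG3 was also the 1 member lower in mRNA, at -1.49, with 0 higher (background 3.47% and 3.65%). Translational efficiency had 0 members of either kind (background 2.19% and 8.27%). ARG3 mRNA levels were 10.53 in dbp1delta and 8.9 in the double mutant. ASN1 footprints were on the other side, at 0.63. With equal totals 3 members were lower in footprints, and all genes had 225 higher and 154 lower in mRNA, 261 and 509 in footprints and 49 and 530 in translational efficiency. The deposited changes of both strains are taken to be against the same control, so their likeness is not read as a result.

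Cold and heat can be set side by side, since ded1-cs and ded1-ts and their controls share no libraries, although allele, strain and temperature all differ and cannot be told apart. The members' mRNA changes were more positive at 37 °C: in the difference of the ded1-ts and ded1-cs changes, 10 of 32 were 2-fold higher (31.2%) and 0 lower, against 3.55% and 2.98% of 5068 genes. The median difference was 0.47 against -0.02. The widest gap was for ARG1, with -2.10 for ded1-cs and 0.56 for ded1-ts in the authors' deposited tables, and ARG4 had -1.02 and 0.51. The 10 also include ASN1, LYS1, LYS20, ARO3, CPA1, ARG3 and ARG5,6. Translational efficiency had 0 members higher and 4 lower in heat (12.5%, background 16.6% and 9.63%). These were LYS20, HIS4, ASN1 and LYS21, which stood at 1.20, 1.13, 1.23 and 1.20 in ded1-cs and at -0.25, -0.27, -0.08 and -0.07 in ded1-ts in the authors' deposited tables. That direction rests on the scaling. With equal totals, an alternative chosen after seeing the data, translational efficiency had 3 members higher in heat, ARG5,6, TRP4 and ARO1, and 0 lower, where 31.3% of all genes were higher and 1.26% lower. The mRNA count of 10 higher and 0 lower was the same with equal totals, where 5.23% and 2.33% of all genes were counted. Footprints had 5 members higher and 0 lower (background 19.1% and 14.5%), and 13 and 0 with equal totals (38.0% and 3.00% of all genes). Without the close copies LYS20, LYS21 and ASN1, 1 member, HIS4, was lower in translational efficiency. Across members, Pearson's r between the cold and heat changes was 0.09 for mRNA and 0.43 for translational efficiency (n = 32 genes), as a description only, where all genes had 0.39 and 0.60.

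CPA1 can be followed through every strain. In the authors' deposited tables the translational efficiency change of CPA1 was -0.94 in ded1-cs, -0.48 in ded1-cs_hcDBP1, -0.96 in ded1-ts, -0.49 in ded1-ts_hcDBP1, -0.46 in dbp1delta and -0.83 in the double mutant. CPA1 thus lay below its control in each strain, without passing 2-fold in any on the authors' scale. Equal totals moved all genes by -0.59 in ded1-cs and -0.07 in ded1-ts in this measure, and CPA1 then passed 2-fold in both. So did 1789 of 5076 genes, lower in ded1-cs, and 381 of 5222, lower in ded1-ts. ARG5,6 also lay below 0 in all 6 comparisons, as did 699 of 4912 genes. Comparisons that use the same control are not independent. The footprint level minus the mRNA level, relative to the median gene of the strain, was -0.84 for CPA1 in DED1-CS and 0.19 in DED1-TS. The median member stood at 0.64 and 0.81 in these controls, so most of these enzymes lay above the median gene in the control strains.

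GCN4, the activator of many of these genes, differed in direction between cold and heat. In the authors' deposited tables GCN4 footprints stood at -1.72 in ded1-cs and -0.95 in ded1-cs_hcDBP1. At 37 °C they stood at 2.22 in ded1-ts, 1.60 in ded1-ts_hcDBP1, 1.61 in dbp1delta and 2.90 in the double mutant. GCN4 mRNA was above its control in all of these, from 0.47 to 1.14, so the difference in sign lay in translational efficiency, with -2.40 for ded1-cs and 1.43 for ded1-ts in the authors' deposited tables. The part of GCN4 in the enzyme values was not tested.

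Among the pathway regulators, LYS14, activator of the lysine genes, had translational efficiencies of -2.14 in ded1-cs and -0.52 for ded1-ts in the authors' deposited tables. BAS1, which acts on histidine and purine genes, was at -2.44 and -2.34 there, and at -2.85 in the double mutant. In ded1-cs, translational efficiency was lower for 4 of the 11 regulators and higher for 0 (background 21.9% lower and 16.4% higher). The arginine regulators ARG80, ARG81 and ARG82 stayed between -0.45 and 0.71 in translational efficiency over the 6 deposited comparisons.

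Amino acid enzymes outside the members were read in the same way. Of 24 such genes analysed of 27 listed, ded1-cs had 5 with higher and 3 with lower translational efficiency (background 16.4% and 21.9%), and the median mRNA change was -0.39. ARG7, the ornithine acetyltransferase, stood at 1.37 in translational efficiency in ded1-cs, while ARG2, the acetylglutamate synthase of the first arginine step, was at -1.46 with mRNA at 0.03 in the authors' deposited table. At 37 °C 2 of the 24 were higher and 4 lower in footprints in ded1-ts (background 6.68% and 6.64%). The lowest were MET6, methionine synthase, at -3.16 and SHM2, serine hydroxymethyltransferase, at -2.18 in the authors' deposited table. In dbp1delta 2 of 24 were higher in footprints (background 1.31%), ARG7 at 1.28 and GDH1, glutamate dehydrogenase, at 1.23 in the authors' deposited table.

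Over the 6 deposited comparisons, 17 members passed 2-fold in at least 1 measure and 16 in none. The latter were ARG8, HIS1, HIS7, LYS4, LYS9, LYS12, TRP2, TRP3, TRP4, TRP5, ARO2, ARO3, HOM6, THR1, THR4 and ILV1. They include every member specific to tryptophan or threonine synthesis. The same pooled count was not made for all genes, so these numbers are not read as a result about the members. In translational efficiency of ded1-cs alone, 16.4% of all genes were higher and 21.9% lower.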

How the data were processed

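Ribosome footprint and mRNA libraries of 8 yeast strains were compared through the 6 tables the authors deposited. Genome build sacCer2, DESeq2, TopHat2 2.1.0, Bowtie2 2.6.0 and CASAVA 1.8 are named, without roles, per the submitters' processing notes. The tables hold log2 levels and log2 changes, normalized by the authors and pooled over the 2 libraries of a strain and assay. Base 2 was taken from the values, since the tables name none. Deposited translational efficiency equalled footprint minus mRNA change within 1e-05. Level columns are rounded, which set differences of levels off from the deposited changes by 0.147 at most. In the dbp1 experiment 4 WT level columns match no sample and were not used.

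Of the 5446 reading frames, 5444 were matched by locus tag to RefSeq symbols of another build, used for names and neighbours only, and no sequence is shown. Counts and medians cover all members, but the values of 1 member are not reported here. Genes entered with a mean level of at least 50 (mean of log2 levels over the strains and controls compared). The 9 comparisons are the 6 deposited ones and 3 differences of deposited changes. The planned tests on counts were not run, since no value per library is given, and no p, SD or depth interval is reported. Counts at 2-fold took their place, with Python 3.11.15, pandas 2.3.3 and numpy 2.4.6, tested on simulated data.

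Members and lists (other amino acid enzymes, branched-chain genes, regulators, catabolism, auxotrophic markers, mating type and haploid markers) were chosen with earlier results of these data known. Genes named are the members past 2-fold (up to 8 per measure), the highest and lowest of each pathway, DED1, DBP1, GCN4 and up to 3 list genes past 2-fold per direction. CPA1, ARG8, ARG80, ARG81, ARG82, ASN2 and members named with smaller changes were added after their values were seen. Alternatives were equal totals, median centring, no level minimum, a minimum of 200, level columns and leaving out close copies.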

Additional observations from a re-analysis of the deposited data

How the results depend on the processing

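With equal column totals, footprints of ded1-cs had 0 members higher and 7 lower, against 157 and 1663 of 5076 genes. Its translational efficiency had 0 and 4, against 91 and 1789. In ded1-cs_hcDBP1, 7 members were lower in footprints, against 1039 of 5072 genes. Translational efficiency there had 0 members higher and 1 lower, against 86 and 1230. In both strains, no member was thus higher in translational efficiency on a scale where most genes past 2-fold were lower. Member medians stayed above those of all genes, at -0.13 against -0.50 in ded1-cs and -0.03 against -0.29 in ded1-cs_hcDBP1. In the ded1-ts change minus the ded1-cs change, an alternative chosen after seeing the data, that scaling gave 13 members higher in footprints and 3 higher and 0 lower in translational efficiency. Of all genes, 38% were then higher in footprints, and 31.3% were higher and 1.26% lower in translational efficiency. At 37 °C that scaling gave 1 member, CPA1, lower in translational efficiency in ded1-ts, against 381 of 5222 genes. In ded1-ts_hcDBP1 it gave 1 member higher in mRNA, against 187 of 5208 genes. Bracketed shares in the rest of this paragraph are those of all genes on the authors' scale. With median centring, translational efficiency had 3 members lower in ded1-cs, 0 higher in ded1-cs_hcDBP1 and 1 lower in ded1-ts, where 1 was higher in footprints. Level columns gave 1 member lower in mRNA in ded1-ts (3.2%). Without the close copies LYS20, LYS21 and ASN1, ded1-cs had 0 members higher in footprints (14.0%) and 3 in translational efficiency (16.4%). In ded1-cs_hcDBP1 1 was higher in translational efficiency (9.21%). In ded1-ts 1 was higher in footprints (6.68%) and 1 in mRNA (4.14%), with a median mRNA change relative to all genes of -0.036. Leaving these out also gave 1 member lower in translational efficiency in the ded1-ts change minus the ded1-cs change (9.63%). The member added by level columns was ARG3, whose deposited change was -0.99 and whose levels are rounded. The causes of the other shifts were not tested beyond the scaling applied or the members left out. Of single members' calls, 10 fell below 2-fold with equal totals and 5 with median centring. No level minimum and a minimum of 200 kept every count within 1.5 times. Equal totals could not be had for the strains set against the dbp1 experiment's WT, nor level columns for any comparison there.

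No paired analysis was possible because each deposited value pools both libraries of a strain. Leaving out a replicate and refitting with DESeq2 were not run for the same reason. Replicate error and depth are therefore unknown for each value, and differences near 2-fold cannot be told from noise.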

Other observations

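Genes that break amino acids down were also measured. CAR2, the ornithine aminotransferase of arginine breakdown, stood above its control in mRNA in all 6 deposited comparisons, at 1.40 in ded1-cs, 1.15 in ded1-cs_hcDBP1, 1.39 in ded1-ts, 0.89 in ded1-ts_hcDBP1, 1.51 in dbp1delta and 2.42 in the double mutant in the authors' deposited tables. CAR1, the arginase of the preceding step, ran from -0.51 to 0.76 in mRNA in the same tables. Of 4912 genes analysed in all 6 comparisons, 736 lay above 0 in mRNA in each, as CAR2 did. PUT1, the proline oxidase, stood at 2.00 in footprints and 0.13 in mRNA in ded1-cs in the authors' deposited table. CHA1, the serine and threonine deaminase, was at -2.19 in footprints and -2.86 in mRNA in dbp1delta, and ARO10, a decarboxylase of aromatic amino acid breakdown, at 2.57 in footprints in the double mutant in the authors' deposited tables.

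Of the mating type markers, 5 a-type genes and 4 haploid genes passed the level minimum in all comparisons. In mRNA 0 of the a-type genes were counted in 5 of the 6 deposited comparisons, and in the double mutant 1, BAR1, stood at -1.05 in the authors' deposited table. Of the 4 haploid genes 0 were counted in mRNA. Over these comparisons 0.572% to 9.93% of all genes were higher in mRNA and 0.595% to 4.95% lower. With so few genes, counts of 0 are near those shares and are not read as a result. STE3, an alpha-type receptor gene, stood at -1.94 in mRNA in ded1-cs in the authors' deposited table. Of 3 alpha-type genes listed, it was the 1 that passed the level minimum there. Its log2 mRNA levels reached down to 4.9 over the strains, where the lowest of any member was 7. TRP1, a tryptophan enzyme used as a marker, was between -0.36 and 0.15 in mRNA, and LEU2 mRNA stood at -1.16 in ded1-cs_hcDBP1, in the authors' deposited tables.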
